A study of Mus musculus with 18 samples.

Results

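Regions of accessible chromatin near 7 mouse genes that guide lymphocytes to their place in the spleen, Cxcr5, Cxcr4, Ccr7, Ccr6, S1pr1, Gpr183 and Klf2, were compared between B cells and T cells cut from spleen sections. A region was counted to a gene when the nearest end of any protein-coding gene, within 50 kb, belonged to that gene. This gave 52 of the 27396 regions in the deposited count table: 12 at S1pr1, 11 at Cxcr4, 9 at Ccr7, 7 at Gpr183, 5 at Cxcr5 and 4 each at Ccr6 and Klf2. The libraries were ATAC-seq, in which a transposase cuts and tags open DNA. B and T cells each gave 5 libraries of patches and 4 libraries of 100 nuclei. All of them came from wild-type C57BL/6J spleen, fresh frozen, sectioned, tagmented on the section and immunostained for B or T cells before laser capture. A patch library pooled 10 captured areas of about 100 nuclei each, about 1000 nuclei in all, and a library of 100 nuclei held nuclei captured singly. The labels give no age, no antibody and no link from a library to a mouse, and they call the replicates technical, so a p-value here speaks of the spread among libraries, not among mice.

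In the spleen, B cells sit in follicles and T cells in the zone around the central arteriole. Cxcr5 is the receptor for the follicular chemokine Cxcl13, and Ccr7 is the receptor for Ccl19 and Ccl21, the chemokines of the T zone. Gpr183, also called EBI2, senses oxysterols and moves B cells and helper T cells to the borders of these zones. Cxcr4 binds Cxcl12, Ccr6 binds Ccl20, S1pr1 reads sphingosine 1-phosphate and lets lymphocytes leave for the blood, and Klf2 is a transcription factor that drives S1pr1 in T cells.

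The starts of these genes differ in sequence and in whether a region covered them. RefSeq promoters on assembly GRCm38.p6, the same coordinates as mm10, were found for 4 of the 7 genes, and the 250 bases before the start are shown because regions lay over the first 2 starts and over neither of the others. Capitals mark GGGCGG (the GC box of Sp and KLF factors), CACCC (a box that KLF factors also read), the ETS core GGAAGT and the TATA motif TATAAA, searched on both strands.
Cxcr4, minus strand, chr1:128592300-128592549: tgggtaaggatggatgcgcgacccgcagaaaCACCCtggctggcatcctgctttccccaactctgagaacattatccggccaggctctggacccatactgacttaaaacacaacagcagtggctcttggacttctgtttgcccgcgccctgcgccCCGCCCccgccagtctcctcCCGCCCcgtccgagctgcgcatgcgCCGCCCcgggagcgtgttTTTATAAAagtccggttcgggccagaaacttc
Klf2, plus strand, chr8:72318812-72319061: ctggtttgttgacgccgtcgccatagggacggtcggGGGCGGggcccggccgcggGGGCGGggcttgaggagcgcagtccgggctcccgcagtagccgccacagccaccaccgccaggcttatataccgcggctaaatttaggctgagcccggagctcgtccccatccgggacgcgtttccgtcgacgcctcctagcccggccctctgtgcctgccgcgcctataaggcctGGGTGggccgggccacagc
Gpr183, minus strand, chr14:121965194-121965443: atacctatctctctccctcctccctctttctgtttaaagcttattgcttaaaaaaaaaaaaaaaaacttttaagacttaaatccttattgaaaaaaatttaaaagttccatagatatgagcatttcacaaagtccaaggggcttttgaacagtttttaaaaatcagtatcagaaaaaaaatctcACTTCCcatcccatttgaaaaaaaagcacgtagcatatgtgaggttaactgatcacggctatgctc
Ccr6, plus strand, chr17:8235793-8236042: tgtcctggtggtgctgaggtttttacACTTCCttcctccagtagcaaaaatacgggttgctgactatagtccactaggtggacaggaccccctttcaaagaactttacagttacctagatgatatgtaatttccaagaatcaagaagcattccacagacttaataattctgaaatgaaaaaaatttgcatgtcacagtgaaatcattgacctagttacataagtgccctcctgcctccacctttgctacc
The Cxcr4 stretch was 61.2% G and C and the Klf2 stretch 71.2%, against 32.0% at Gpr183 and 41.2% at Ccr6. Over 21263 protein-coding promoters the median was 55.6%. A second Ccr6 start, at 46.0%, had no region over it either, while 41.7% of all those promoters overlapped one. GGGCGG was present at Cxcr4 (3 matches) and Klf2 (2) and is found in 42.6% of promoters. CACCC was present once at each of the same 2 genes and is found in 54.2%. GGAAGT was present once at Gpr183 and once at Ccr6, and is found in 20.4%. TATAAA had 2 matches at Cxcr4, 1 on each strand and overlapping each other, and is found in 11.6%. These are matches of letters, not shown to be bound sites.

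Libraries of patches held 2713677 to 6553535 counts in B and 2193837 to 7343204 in T, and libraries of 100 nuclei 547333 to 720555 in B and 319481 to 1076765 in T. The patch libraries numbered 2 were the shallowest of each cell type. The regions of 12 B cell marker genes held 1616 to 2251 nuclear CPM (counts scaled to the library's counts outside the mitochondrial genome) in B patches, against 324 to 545 in T patches, and those of 13 T cell marker genes 397 to 553 in B patches and 1639 to 2245 in T patches. Markers of some other cells moved with the same contrast. Regions at 3 of 9 macrophage and monocyte genes held 160 to 268 in B patches and 46.5 to 109 in T patches. Regions at 3 of 6 dendritic cell genes held 148 to 269 in B patches and 38.0 to 123 in T patches. Regions at 4 of 5 plasma cell genes held 470 to 581 in B patches and 346 to 488 in T patches. Those at 3 of 8 stromal and endothelial genes held 124 to 190 in B patches and 189 to 303 in T patches. At 3 of 4 NK cell genes B patches held 196 to 277 (median 206) and T patches 184 to 383 (median 216). At 3 of 7 erythroid and megakaryocyte genes B patches held 61.7 to 94.3 (median 82.7) and T patches 64.4 to 179 (median 68.2). No region was assigned to the macrophage genes Cd68, Lyz2, Marco, Mertk, Spic and Vcam1, the dendritic cell genes Itgax, Xcr1 and Zbtb46, the plasma cell gene Jchain, the stromal and endothelial genes Col1a1, Col1a2, Madcam1, Pdgfra and Tek or any of the 5 neutrophil genes. The part of such cells in the results below was not tested.

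In patches, single regions of 4 homing genes were called as more accessible in B. Other regions of the same genes had values on either side of 0. These calls depended on the libraries and the scaling in the fit, as given below. All 52 regions passed the filter on low counts, and 4 passed an adjusted p of 0.05 (edgeR quasi-likelihood test, adjusted over the 25712 regions tested). All 4 were higher in B, 1 each at Cxcr5, Cxcr4, Ccr7 and Gpr183. That is 7.69% of the 52, where 2.27% of all regions were called, 1.22% as higher and 1.05% as lower in B. With no adjustment 18 of the 52 had p under 0.05, 9 higher and 9 lower in B, against 12.7% of all regions (6.91% higher and 5.79% lower). Every B library lay above every T library in 7 regions and below in 5, 23.1% of the 52 together. Over all regions this share was 8.03% (4.33% above and 3.69% below). The genes were chosen with earlier results of these data known, so larger shares among the 52 are no test of the set. The median log2 fold change, B over T, was −0.24 over the 52 and −0.03 over all regions tested, and it was above 0 in 22 of the 52 and in 48.7% of all regions. A larger share of nuclei with a region open and more cutting per nucleus cannot be told apart in pooled nuclei.

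**Figure D1:**
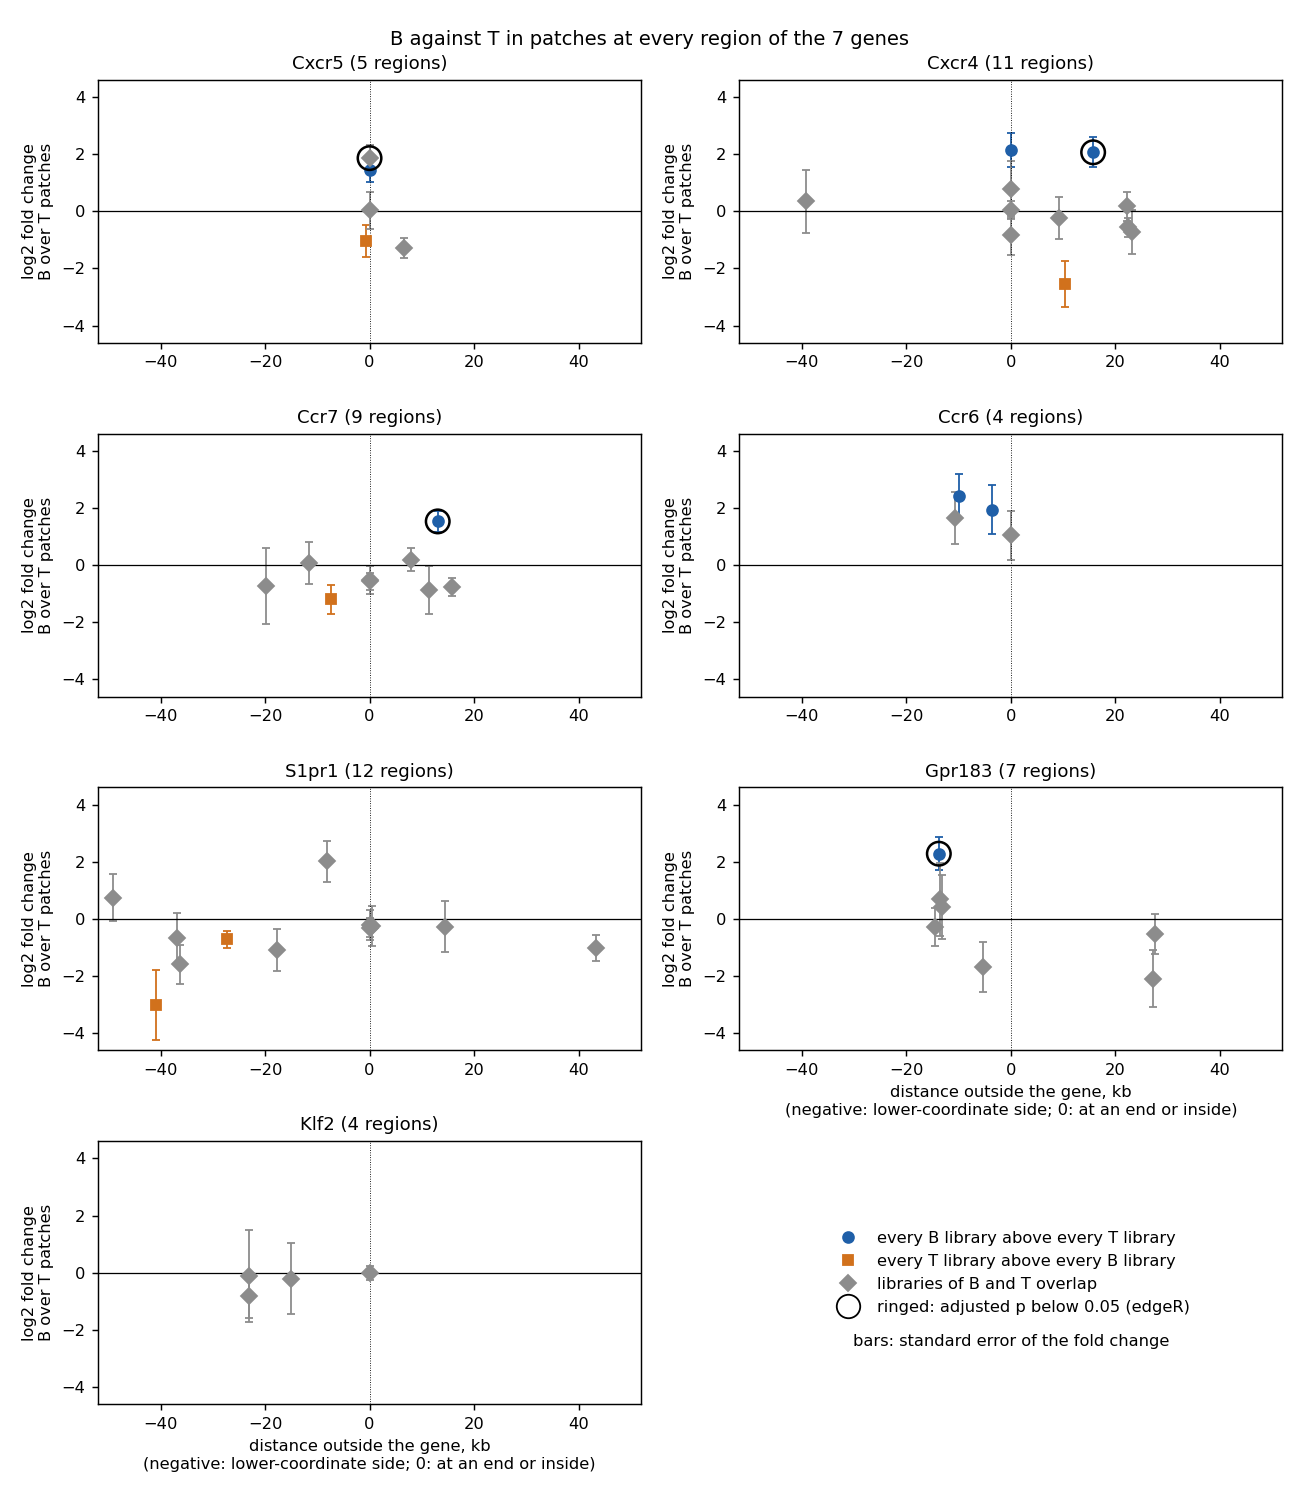
Log2 fold change of B over T patches (vertical axis, bars are standard errors) for each of the 52 regions against its distance outside the gene in kb (horizontal axis, 0 for regions at an end or inside). Blue circles and orange squares mark regions whose B and T libraries did not overlap, grey diamonds those that did, and rings the 4 called regions, all above 0. Cxcr5, Cxcr4 and Ccr7 each hold regions of both colours.

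At Cxcr5, the follicle receptor, the region over one end rose in B, and of the other 4 regions, which did not pass in edgeR, 2 had means higher in T patches. The region over the higher-coordinate end (chromosome 9, 44526299 to 44526588) held 110, 22.4, 78.2, 57.9 and 42.8 normalized CPM in B patches 1 to 5, against 22.1, 24.5, 7.42, 15.5 and 16.7 in T patches 1 to 5. Only B patches 2 reached down into the T range. It rose in B by a log2 fold change of 1.86 ± 0.47 (SE; edgeR adjusted p = 0.0394). Inside the gene, 4.2 kb from that end, the region of 44522022 to 44522247 held 52.8, 34.9, 39.1, 47.1 and 49.8 in B patches and 16.8, 18.9, 10.9, 19.3 and 16.2 in T patches. These groups did not overlap, and the fold change of 1.45 ± 0.43 did not pass (adjusted p = 0.0888). The most accessible Cxcr5 region, 6.67 kb outside the gene (44533116 to 44533565), held 31.8, 26.4, 32.0, 46.0 and 41.0 in B patches and 124, 34.2, 105, 82.4 and 90.3 in T patches. Here T patches 2 was the one T library within the B range, and the value of −1.30 ± 0.35 missed the threshold (adjusted p = 0.0529). Without T patches 2 it passed, at −1.52 (adjusted p = 0.00735). Beyond the lower-coordinate end a region 0.715 kb out, which also lies within Bcl9l, held 36.3, 0.734, 23.6, 36.3 and 33.9 in B patches and 51.9, 60.7, 72.6, 37.1 and 50.7 in T patches. Every T library was above every B library there, the closest by a small margin, and the value was −1.05 ± 0.56 (adjusted p = 0.474). The fifth region, 0.154 kb outside (44526598 to 44526792), lay directly beside the called end region. It was near 0, at 0.03 ± 0.64, with means of 18.9 in B patches and 18.4 in T patches. DESeq2 called 3 of the 5 Cxcr5 regions: the end, the region inside the gene (1.44, adjusted p = 0.00157) and, as lower in B, the one at 6.67 kb (−1.28, adjusted p = 0.00174).

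Ccr7, the receptor for the T zone, had its one called region on the B side. This region, 13.1 kb beyond the higher-coordinate end (chromosome 11, 99168127 to 99168412), which overlaps the promoter entry of another gene, Gm32249, held 71.1, 91.0, 77.4, 87.2 and 69.6 normalized CPM in B patches, against 25.9, 32.2, 8.87, 30.1 and 40.7 in T patches. The groups stood well apart, and the region rose in B by 1.53 ± 0.38 on the log2 scale (adjusted p = 0.0357). On the other side of the gene, a region 7.44 kb out (99136515 to 99136760) held 21.2, 30.5, 14.4, 6.99 and 12.3 in B patches and 45.5, 32.6, 47.0, 36.6 and 34.0 in T patches. Every T library was above every B library, though the value of −1.20 ± 0.49 did not pass (adjusted p = 0.265). The most accessible Ccr7 region, over the end of the gene (99154985 to 99155454), held 81.3, 74.5, 62.3, 38.8 and 67.7 in B patches and 121, 98.1, 99.3, 57.1 and 105 in T patches. Those ranges overlapped, at −0.57 ± 0.29 (adjusted p = 0.458). Of the 9 Ccr7 regions 3 had a fold change above 0 and 6 below, with a median of −0.57.

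Cxcr4, the receptor for Cxcl12, had regions on both sides as well. In the region 15.8 kb upstream (chromosome 1, 128608063 to 128608350), B patches held 71.3, 38.5, 59.4, 57.5 and 41.2 normalized CPM and T patches 9.15, 30.5, 4.64, 14.8 and 5.78. The groups did not overlap, and accessibility rose in B by 2.06 ± 0.52 on the log2 scale (adjusted p = 0.0401). A region 10.5 kb upstream (128602754 to 128602899) went the other way, with 9.91, 0, 6.06, 2.25 and 9.13 in B patches and 33.6, 55.1, 18.9, 37.1 and 16.5 in T patches. All T libraries were above all B libraries there, and the value of −2.53 ± 0.80 did not pass (adjusted p = 0.113). Inside the gene, 1.29 kb from an end, B patches held 39.6, 41.5, 23.2, 24.6 and 31.0 and T patches 9.41, 8.04, 5.43, 3.76 and 9.12. Again the groups did not overlap, at 2.16 ± 0.60 (adjusted p = 0.0596), and the region passed without T patches 2 (adjusted p = 0.0432). DESeq2 called all 3 of these Cxcr4 regions, 2 higher and 1 lower in B.

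The region over the Cxcr4 start, whose sequence is given above, held 98.8, 139, 89.9, 61.5 and 77.0 normalized CPM in B patches and 45.5, 117, 79.1, 111 and 100 in T patches. It was the most accessible of the 11 Cxcr4 regions, and the ranges of B and T overlapped (0.04 ± 0.30, adjusted p = 0.987). With library size alone as scaling the value was −0.11, and likewise −0.14 at the Klf2 start. A p that misses the threshold does not show that B and T were alike.

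Gpr183, the oxysterol receptor, had its called region 13.8 kb downstream of the gene. This region (chromosome 14, 121938295 to 121938560), which lies inside Ubac2, held 71.1, 13.9, 55.4, 36.3 and 30.4 normalized CPM in B patches and 8.64, 11.7, 6.75, 3.01 and 12.7 in T patches. It rose in B by 2.28 ± 0.59 on the log2 scale (adjusted p = 0.0423), with B patches 2 only just above the highest T library. All 7 Gpr183 regions lay outside the gene and inside Ubac2, and no region covered the start. The other 6 ran from −2.09 to 0.68, and neither edgeR nor DESeq2 called any of them.

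Ccr6, the receptor for Ccl20, was the one gene of the 7 with every fold change above 0. Its 4 fold changes ran from 1.04 to 2.42, of which edgeR called 0 (adjusted p = 0.110 to 0.763; 2 with an unadjusted p under 0.05) and DESeq2 1, the region 9.99 kb upstream (2.43, adjusted p = 0.00516). The most accessible, 3.66 kb upstream (chromosome 17, 8232129 to 8232378), held 38.7, 67.9, 34.7, 43.7 and 34.7 normalized CPM in B patches and 7.88, 0, 22.3, 0 and 26.2 in T patches. The one with the smallest p, 9.99 kb upstream (8225779 to 8226049), held 52.1, 27.9, 20.5, 22.1 and 11.3 in B patches and 1.02, 3.22, 3.71, 8.77 and 8.23 in T patches. Both had every B library above every T library, at 1.94 ± 0.87 (adjusted p = 0.335) and 2.42 ± 0.76 (adjusted p = 0.110).

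**Figure D2:**
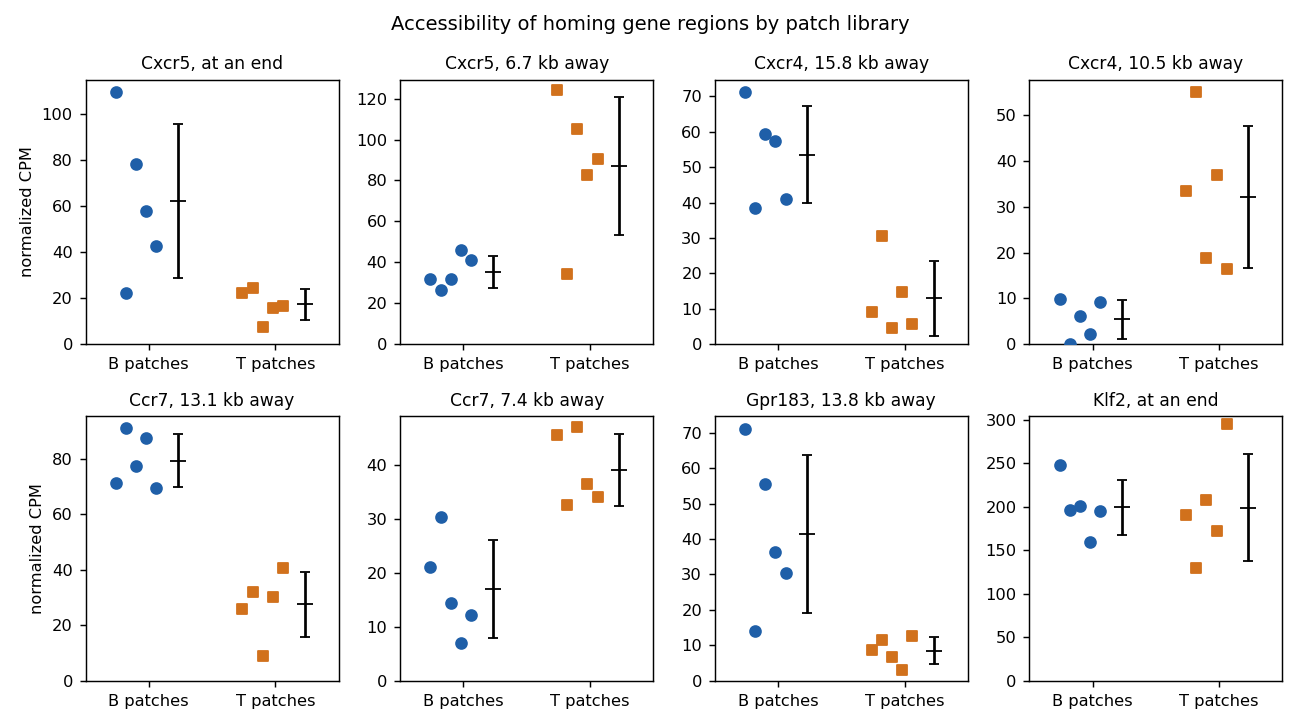
Normalized CPM (vertical axis, from 0) in each patch library for 8 regions, B patches as blue circles and T patches as orange squares, with the mean and SD (n = 5 each) beside them. The Cxcr5, Cxcr4 and Ccr7 panels pair a called region higher in B with a region of the same gene whose mean was higher in T patches. At the Klf2 end B patches ran from 159 to 248 and T patches from 130 to 296.

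S1pr1, the exit receptor, and Klf2, which drives it in T cells, had 0 called regions of 12 and of 4 (edgeR). With no adjustment 5 S1pr1 regions had p under 0.05, 1 higher and 4 lower in B, and 0 Klf2 regions did, while DESeq2 called 1 at S1pr1, lower in B, and 0 at Klf2. The most accessible S1pr1 region, 27.3 kb beyond the lower-coordinate end (chromosome 3, 115682557 to 115683159), held 53.3, 27.2, 44.5, 76.0 and 65.9 normalized CPM in B patches and 84.4, 94.0, 91.5, 86.9 and 80.9 in T patches. Every T library was above every B library, with a value of −0.71 ± 0.30 that did not pass (adjusted p = 0.300). So were those of a region 41.0 kb out, where B patches ran from 0 to 4.15 and T patches from 7.56 to 22.1 (−3.01 ± 1.21, adjusted p = 0.253). The S1pr1 region with the smallest p, 8.08 kb out (115702157 to 115702352), held 33.5, 50.3, 46.4, 52.1 and 34.7 in B patches and 0.254, 33.8, 8.48, 2.76 and 9.34 in T patches. T patches 2 was the only T library that reached the B range, and the value of 2.01 ± 0.73 (adjusted p = 0.184) became 3.02 without that library and passed (adjusted p = 0.0213).

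The region over the Klf2 start (chromosome 8, 72318725 to 72319334) held 248, 196, 201, 159 and 195 normalized CPM in B patches and 191, 130, 207, 172 and 296 in T patches. B lay within the wider range of T, at 0.00 ± 0.24 on the log2 scale (adjusted p = 0.998). The region over the S1pr1 end likewise overlapped between B and T, at −0.30 ± 0.33 (adjusted p = 0.851). The Klf2 region with the smallest p, 23.1 kb upstream (72295737 to 72295936), held 6.15, 18, 16.5, 2.48 and 10.3 in B patches and 19.3, 27.3, 7.15, 32.8 and 8.45 in T patches, which overlapped. It and the other regions 15.1 to 23.1 kb upstream, 3 in all, had values from −0.83 to −0.12 with standard errors of 0.76 to 1.61.

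Per kb of region width, the 5 regions over a gene end could be set in order. In B patches Klf2 stood first, at 328 ± 51.7 normalized CPM per kb, then Cxcr5 at 215 ± 116, Cxcr4 at 158 ± 49.3, S1pr1 at 148 ± 67.9 and Ccr7 at 138 ± 34.7 (SD, n = 5 each). In T patches Klf2 was at 327 ± 100, Ccr7 at 205 ± 50.5, S1pr1 at 182 ± 44.4, Cxcr4 at 153 ± 49.2 and Cxcr5 at 59.7 ± 23.0. By these means Cxcr5 stood in the second place in B and in the last in T. Ccr7 stood in the second place in T and, by means only, in the last in B. By medians S1pr1 was last in B patches, at 112 against 144 at Ccr7. The libraries of each gene overlapped those of its neighbour in either order.

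The 4 calls depended on which libraries were in the fit, and their direction was the same in every fit tried. All were lost without B patches 1, 3, 4 or 5 or T patches 1, 3 or 4, and all but the one at Ccr7 also without T patches 5 (edgeR adjusted p when lost: Cxcr5 0.0569 to 0.185, Cxcr4 0.0664 to 0.129, Ccr7 0.0629 to 0.0908, Gpr183 0.0585 to 0.193). With library size alone as scaling, which moved the median of all regions by −0.17, all 4 were lost (adjusted p = 0.0637 to 0.0741) and the Cxcr5 region at 6.67 kb was called in their place (−1.47, adjusted p = 0.0242), so that the split of 4 higher and 0 lower became 0 and 1. The joint fit of all 18 libraries also left 0 of the 4 (adjusted p = 0.9999 each). With the replicate number as a block in the edgeR fit, 0 of the 4 were left as well (adjusted p = 0.0676 to 0.141). DESeq2 called 10 of the 52, 7 higher and 3 lower in B, where it called 8.25% of all regions, 4.4% higher and 3.85% lower.

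Summed over all its regions, Ccr6 was the one gene with all B and T patch libraries apart. Ccr6 held 141 ± 48.5 nuclear CPM in B patches, against 39.8 ± 15.5 in T patches (5 libraries each, ± SD), with the lowest B library at 90.5 and the highest T library at 61.8. The Cxcr5 sum was 240 ± 70.5 in B and 253 ± 30.7 in T. Cxcr4 held 454 ± 98.5 in B patches, with 465 ± 167 in T patches. For the exit genes the sums were 360 ± 93.1 in B and 482 ± 110 in T at S1pr1, and 288 ± 47.3 in B and 300.5 ± 67.3 in T at Klf2. Ccr7 stood at 435 ± 108 in B and 490 ± 64.3 in T, and Gpr183 at 138 ± 38.8 in B and 154 ± 70.4 in T. In each of these 6 genes the ranges of B and T overlapped, at S1pr1 through B patches 2 alone, which stood at 523 where the other B libraries were at 297 to 349 and T libraries at 400.4 to 675. No test was made of the sums.

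**Figure D3:**
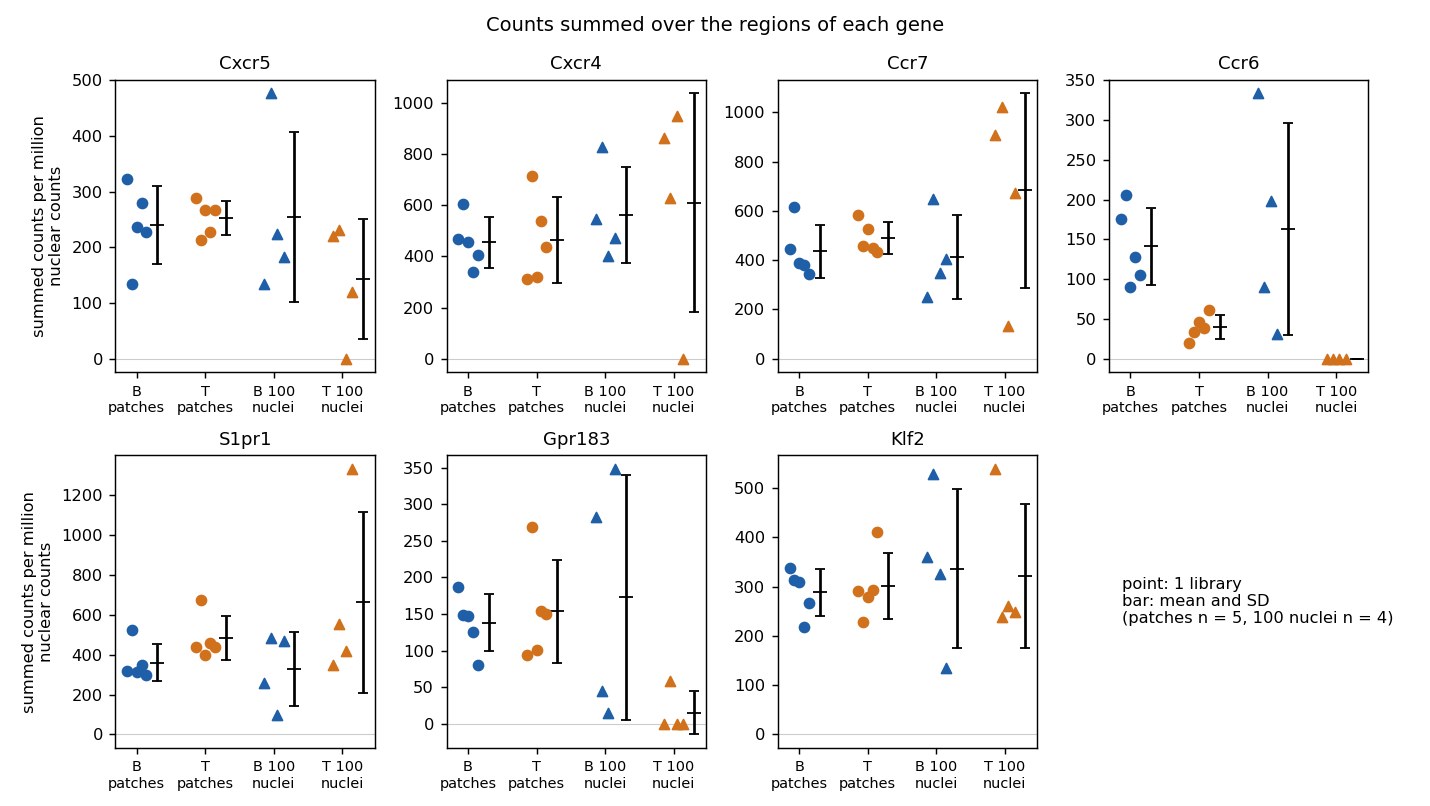
Counts summed over all regions of a gene, in nuclear CPM (vertical axis), by group; each point is 1 library and the bars are mean and SD (n = 5 for patches, n = 4 for 100 nuclei). Ccr6 is the gene whose B and T patch libraries do not overlap, and its 4 T libraries of 100 nuclei are all at 0. The other 6 genes overlap between B and T patches.

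The regions of the 7 genes lay mostly outside the gene they were counted to. Some of these, at Gpr183 and Cxcr5, lay inside another gene, as given above. Of the 52, 5 were over a gene end (9.62%), 7 inside the gene (13.5%) and 40 outside it (76.9%), while over all 23762 assigned regions these shares were 28.8%, 44.0% and 27.2%. Of the 4 called regions 1 was over an end and 3 lay 13.1 to 15.8 kb outside the gene. The widths of the 52 had a median of 194.5 bases and a maximum of 609, against a median of 200 over the series.

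Of the 73 other genes of lymphocyte positioning that were listed, 51 had a region, and 4 of their 160 tested regions were called in patches, 1 higher and 3 lower in B (2.50%, near the 2.27% of all regions). Inside Dock8, a guanine exchange factor for cell migration, B patches ran from 9.62 to 50.7 normalized CPM (median 33.6) and T patches from 0 to 3.78 (median 0.265), a rise in B of 4.97 ± 1.07 (adjusted p = 0.0175). The end of Cxcr6, the receptor for Cxcl16, was lower in B, at 0 to 4.06 (median 0) against 14.3 to 47.0 in T patches (median 19.6), −4.79 ± 1.23 (adjusted p = 0.0421), and this region lies within Fyco1. Near Rap1b and Rap1a, small GTPases that act in integrin adhesion, the called regions had values of −4.18 ± 1.02 (18.9 kb out, adjusted p = 0.0334) and −1.75 ± 0.46 (13.9 kb out, adjusted p = 0.0467). B and T libraries did not overlap in any of the 4. Inside Cnr2, the cannabinoid receptor of B cells, the value of 2.05 ± 0.57 did not pass in edgeR (adjusted p = 0.0637), and DESeq2 called it (adjusted p = 0.00422).

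By class, 1 of 46 regions of other receptors and 3 of 76 signalling regions were called. Of the ligands and cues 0 of 7 were (edgeR; 0 with p under 0.05 and 0 by DESeq2), of the genes that make, export or break down lipid cues 0 of 8 (2 under 0.05 and 1 by DESeq2), and of the regulators of exit receptors 0 of 23 (2 higher and 2 lower in B under 0.05, and 1 higher and 2 lower by DESeq2). No region was assigned to Cxcl13, Cxcl12, Ccl19, Ccl21a or Ccl20, the ligands of the 4 chemokine receptors. The Dock8 call was lost without B patches 1 or 4 or T patches 3 (adjusted p = 0.0510 to 0.0621). The Rap1b call held only without B patches 2 or 5 or T patches 2, the Rap1a call only without B patches 2 or T patches 2, and the Cxcr6 call only without B patches 2 or 4. Adjusted p when lost was 0.0563 to 0.0889 at Rap1b, 0.0571 to 0.225 at Rap1a and 0.0698 to 0.102 at Cxcr6. Without B patches 4, one of 2 B libraries with reads there, the fitted Cxcr6 value was −7.69, and without T patches 5 that of Dock8 was 6.96.

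At 100 nuclei the homing regions were read in scattered fashion. Of the 52 regions, 21 to 27 had reads in a B library and 6 to 28 in a T library, against 46 to 52 in B patches and 45 to 52 in T patches. A region with any reads held a median of 34 counts per library, and reads without molecular identifiers are not independent molecules. Floors given for a count of 0 cover counting error only. The edgeR test called 0 of the 52 regions between B and T, with 7 under an unadjusted p of 0.05, and DESeq2 also called 0, as it did over all regions (0%). Over all regions edgeR called 0.0156% and 5.50% were under an unadjusted p of 0.05.

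Ccr6 again had reads on the B side. Its 4 regions together held 129, 36, 79 and 10 counts in B libraries 1 to 4 and 0 in each of the 4 T libraries. If reads were independent molecules, a count of 0 would allow up to 4.19 to 12.4 nuclear CPM (3 counts). They are not, so a higher level is not excluded. At the called Cxcr5 end, B libraries held 12, 126, 25 and 32 counts and T libraries 0 in all 4. The called Gpr183 region had 67, 18, 0 and 11 counts in B libraries and likewise 0 in each T library. Both thus had reads in B libraries and in none of the T libraries. So had 14 of the 52 regions in all, while 6 had reads in T libraries and in no B library. The shares over all regions were not counted, and T libraries 3 and 4 had reads in only 14.4% and 12.0% of all regions. The called Cxcr4 region held 55, 0, 0 and 18 counts in B libraries and 0, 21, 0 and 0 in T libraries. At the called Ccr7 region there were 4, 44, 25 and 15 counts in B libraries and 36, 65, 0 and 0 in T libraries, so that both cell types had reads. T libraries 3 and 4 had no reads in any of the 4 called regions, and reads in 8 and 6 of the 52.

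Regions without a call in patches held reads on both sides or on either. The Klf2 start held 87, 207, 95 and 31 counts in B libraries and 316, 157, 107 and 60 in T libraries. It was one of 2 homing regions with reads in all 18 libraries, the other being the S1pr1 region at 27.3 kb, with 4, 15, 12 and 10 counts in B libraries and 53, 32, 2 and 260 in T libraries. The Cxcr4 start held 100, 77, 0 and 0 in B libraries and 173, 227, 165 and 0 in T libraries. These reads lay in both cell types, in 2 of 4 B libraries and in 3 of 4 T libraries. Inside Cxcr5, at 4.2 kb, B libraries held 26, 2, 33 and 27 and T libraries 0, 134, 0 and 0. The Ccr7 region at 7.44 kb, higher in T patches in every library, had 0 in all 4 B libraries and 134, 55, 0 and 0 in T libraries.

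**Figure D4:**
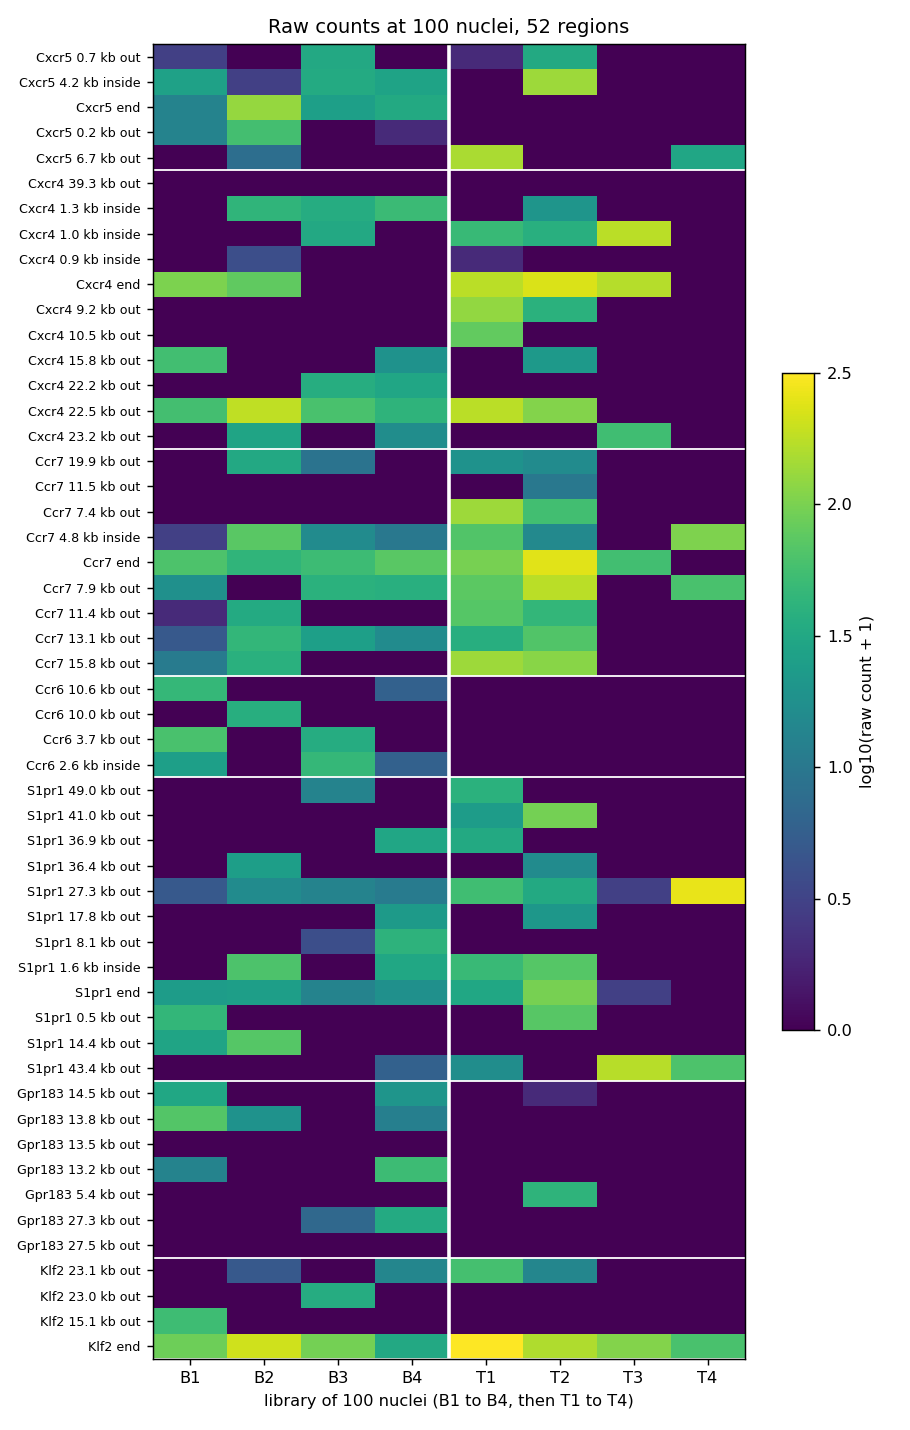
Raw counts at 100 nuclei as log10(count + 1) (colour), 1 row for each of the 52 regions in order of gene and position, and 1 column for each library, B1 to B4 left of the white line and T1 to T4 right of it. The 4 Ccr6 rows are at 0 in all T libraries, and the Klf2 end is read in all 8.

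Whether the difference between B and T depended on the capture size was tested with all 18 libraries. The edgeR test called 0 of the 52 regions and 0% of all regions. Under an unadjusted p of 0.05 were 17 of the 52, against 27.1% of all regions (6968 of 25712). DESeq2 called 12 of the 52, against 12.7% of all regions (3255 of 25712). Both shares were larger among the 52. The genes were chosen with earlier results of these data known, so no trait of the set is read from this. At Ccr6 all 4 regions were under 0.05 with no adjustment (edgeR adjusted p = 0.0734 to 0.170). Their log2 values ran from −7.96 to −5.67, a larger contrast of B over T at 100 nuclei. Counts there were 0 in all 4 T libraries, so the fitted size rests on zeros. This test takes 1 spread for both capture sizes. Within patches such a fit left 0 calls where the separate fit gave 583, and at 100 nuclei it gave more calls than the separate fit. A p that misses the threshold does not make the contrast of B with T equal at both capture sizes.

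Across the 10 patch libraries, the most accessible region of each gene was set against 12053 other regions of at least median abundance, and regions near in pattern were named as a description. Pearson's r is of log2 CPM, over libraries that share their cell type and depth, and the best of so many will be high by the choice. For Cxcr5 (6.67 kb) these were regions of Stat5a and Ints9 (r = 0.958 and 0.920). For the Ccr6 region they were at Utf1 and Nfatc1 (both r = 0.974), and for the Gpr183 region at Pxk (r = 0.944). The S1pr1 region was nearest to regions of Atp6v1g3 and Rnf19a (r = 0.984 and 0.980), the Cxcr4 start to Fmr1 and Tsc22d1 (r = 0.914 and 0.901), and the Ccr7 end to Cbx8 and Cpeb2 (r = 0.938 and 0.922). The Klf2 start was nearest to a region of a predicted gene and then to Wipf1 (r = 0.934). Among the 7 regions themselves r ran from −0.67 (Cxcr5 with Gpr183) to 0.69 (Cxcr5 with S1pr1).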

How the data were processed

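Accessible chromatin was measured by ATAC-seq in 18 libraries, read as paired-end 50 per the labels. The authors deposited 1 table of raw whole-number counts, 27396 regions by 18 columns, with column names that the labels repeat. The submitters' processing notes name mm10 as the build, Bowtie2 2.4.5 and MACS2 2.2.7.1. They also name Trimmomatic 0.36, SAMtools 1.14, deepTools 3.5.2 and Picard, the last with no version. The sources used here do not say which tool called the regions, whether duplicates were removed or whether cut sites were shifted. Coordinates of regions are as the file gives them.

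Regions were assigned with a RefSeq gene table (GRCm38.p6), which gave 86.7% of them a gene. No genome sequence was used, so no sequence of a distal region is shown. Strand came from the promoter table, for Cxcr4, Klf2, Gpr183 and Ccr6. Tests used edgeR 4.0.16 in R 4.3.3 (TMM, quasi-likelihood, Benjamini-Hochberg at 0.05) on the 25712 regions past filterByExpr with a minimum count of 10, each contrast of B with T on the libraries of its size, the interaction with size on all 18. The standard error was taken as the size of the log2 value over the root of its F statistic. Normalized CPM use TMM factors of the 10 patch libraries, and sums (nuclear CPM) are scaled to counts outside the mitochondrial genome. Log2 CPM for correlations had a prior count of 2. The test was tried on simulated data first.

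The members and lists were chosen with earlier results of these data known. Values per library are given for the most accessible region of each gene and the one with the smallest p, and for other regions chosen after their values were seen. From the pathway list the called regions and the genes of smallest p, up to 6, were to be named, and for each most accessible region the 2 genes most like it in pattern. Some items these rules select are not reported here. Alternatives were DESeq2 1.42.0, other scalings, filters and assignments, a joint fit, a replicate block and each library left out.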

Additional observations from a re-analysis of the deposited data

Results flagged for a closer look

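In 84 groups of 4 or 5 libraries, 8 had 1 library far from the others. Chance alone marks about 1 in 20 groups, so a few such libraries come with this many groups.

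Libraries numbered 2 made up 5 of the 8. In B patches, library 2 held 67.9 normalized CPM at the Ccr6 region 3.66 kb upstream, against 34.7 to 43.7 in the others. In T patches, library 2 held 33.8 at the S1pr1 region 8.08 kb out, against 0.254 to 9.34. The S1pr1 sum was highest in library 2 of both cell types, at 523 nuclear CPM in B patches (others 297 to 349) and 675 in T patches (others 400.4 to 456). At 100 nuclei, T library 2 was the only T library with reads at Gpr183, at 58.7, and the others were at 0. The rest were T library 1 of 100 nuclei at Klf2, with 539 against 238 to 260, T patches 5 at Dock8, with 3.78 normalized CPM against 0 to 0.501, and B patches 4 at Cxcr6, with 4.06 against 0 to 0.332.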

How the results depend on the processing

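For B versus T in patches, the counts were 583 calls over all regions, 4 at the homing genes and 4 at the other pathway genes. DESeq2 gave 2120, 10 and 16, the joint fit of 18 libraries 0, 0 and 0, and leaving out both patch libraries numbered 2 gave 1156, 9 and 8. Library size alone gave 1 homing call, a region lower in B that was not among the 4. Assignment within 10 kb (23 regions tested) kept 1 of the 4, higher in B. Leaving out 1 library gave 259 to 673 calls over all regions, 0 to 7 homing calls and 0 to 7 pathway calls. With the replicate number as a block these counts were 215, 0 and 0, and the 4 homing regions had adjusted p of 0.0676 to 0.141. Same-numbered B and T patch libraries had correlations of their deviations of −0.01 to 0.03, and at 100 nuclei −0.01 to 0.02. Such low values cannot decide whether same-numbered libraries share a section or a run, since noise within each library lowers them.

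At 100 nuclei the 4 calls over all regions became 0 with DESeq2, 0 with the replicate block, 6955 with the joint fit (20 of them homing regions, where the separate fit had 0) and 2 to 4 without 1 library. For the difference between capture sizes, 0 calls became 3255 with DESeq2 (12 homing), 5 with a minimum count of 30 and 0 to 419 without 1 library, the highest without T library 1 of 100 nuclei; homing calls stayed at 0 without any 1 library and under the replicate block. The replicate block left 0 calls there over all regions.

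Of the named regions only those over the Cxcr4 and Klf2 starts changed sign. Cxcr4 was −0.11 with library size alone, −0.041 in the joint fit, −0.037 without both libraries numbered 2, and −0.14 to 0.16 without 1 library. Klf2 was −0.14, −0.075, −0.11 and −0.13 to 0.18 in the same order. The cause of these changes was not tested. At 100 nuclei 27.8% to 40.0% of all regions were read in B libraries and 12.0% to 38.8% in T libraries, and this share did not follow the total count in every library.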
